A study of Mus musculus with 3 samples.

Results

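The mouse genes for the receptors of the immunoglobulin constant region (Fc) were followed through the cells of glioblastoma-bearing brains. The set had 10 members out of 31053 genes in the feature tables, chosen by symbol alone, and all 10 were found. They were the IgG receptor genes Fcgr1, Fcgr2b, Fcgr3 and Fcgr4, the signaling chain Fcer1g, the Fc receptor-like gene Fcrls, the neonatal receptor Fcgrt, the IgE receptor chains Fcer1a and Ms4a2, and the low-affinity IgE receptor Fcer2a (CD23).

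The cells came from 3 droplet single-cell RNA-seq libraries, 1 from mice given vehicle (replicate 2 in the labels) and 2 from mice given niacin (replicates 1 and 2). All mice were female C57BL/6 animals of 6 to 8 weeks carrying BT0309 brain tumor-initiating cells in the right striatum, a line derived from Nf1+/-;Trp53+/- mice on the same background. Niacin was injected intraperitoneally at 100 mg/kg every day from day 7 after implantation, and vehicle mice received saline. Brains were taken at 4 weeks, and a 2 mm section around the injection site was enriched for leukocytes on Percoll and sorted for live cells. Each library was a pool of animals: the methods give 5 vehicle mice and 10 niacin mice, whereas the sample labels give 4 brains to a pool. With 1 vehicle library, the spread among vehicle pools is unknown, so niacin and vehicle are set side by side without a test, and the tests reported compare cell classes within the same libraries.

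Fc receptors couple antibody to the cells that act on it. The activating IgG receptors encoded by Fcgr1 (FcγRI, high affinity), Fcgr3 (FcγRIII) and Fcgr4 (FcγRIV) bind IgG with their own chain and signal through the common γ chain encoded by Fcer1g, whose ITAM motif recruits the kinase Syk. Fcgr2b (FcγRIIB) carries an inhibitory ITIM motif instead and recruits the phosphatase SHIP-1, so the balance between Fcgr2b and the activating receptors sets the threshold for phagocytosis and cytokine release in myeloid cells. Fcer1a and Ms4a2 encode the α and β chains of the high-affinity IgE receptor, which also uses Fcer1g. Fcgrt encodes the α chain of FcRn, which salvages IgG from lysosomal degradation and pairs with B2m. Fcrls is a receptor-like relative that is used as a marker of microglia, the resident macrophages of the brain.

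The libraries held 6947 barcodes, of which 5528 passed the filters (at least 200 genes detected, at most 20% mitochondrial UMIs). A total of 924 barcodes appeared in more than 1 library, with a median ratio of 15.7 between the highest and the second UMI total; such a barcode was kept only where 1 library held at least 5 times the UMIs of any other. This left 4269 cells, 1264 from the vehicle library and 1411 and 1594 from the niacin libraries, with median UMI counts of 3276, 5128 and 5231. Cells were placed in classes by UMIs of lineage markers that did not include any Fc receptor gene, and 3886 cells fell into 10 classes. Microglia-like cells numbered 440 under vehicle, and 857 and 1001 in the niacin libraries. The monocyte- and macrophage-like class was unevenly filled, with 216, 10 and 27 cells in the same order, so its niacin values rest on few cells. The summed microglia markers stood at 16559 to 21841 CPM (UMIs per 1000000 UMIs of the class in a library) in microglia-like cells. In monocyte- and macrophage-like cells they stood at 318 to 422. The classes were set by these markers, so the values describe the split and are no separate support for the names. Cells of the basophil- or mast cell-like class carried the mast cell protease Cma1 at 5712 to 9876 CPM in the 3 libraries, against 31.4 to 191 for the basophil protease Mcpt8. In vehicle, niacin replicate 1 and niacin replicate 2, the basophil markers Cd200r3 and Prss34 were at 573, 404 and 416 and at 0, 96.7 and 15.7 CPM. Of the other mast cell markers, Tpsb2 was at 14910, 13436 and 13767, Kit at 2549, 1845 and 1601 and Mcpt4 at 0, 1151 and 377.

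The genes lie in few places. In GRCm38, Fcgr2b (chr1:170958617-170976547), Fcgr4 (chr1:171018920-171029761), Fcgr3 (chr1:171051174-171064935) and Fcer1g (chr1:171229572-171234365) are neighbours on chromosome 1, and Fcer1a (chr1:173221284-173227214) is on the same chromosome. Fcgr1 (chr3:96282909-96293969) and Fcrls (chr3:87250758-87263738) are on chromosome 3, Fcgrt (chr7:45092990-45103851) on chromosome 7, Fcer2a (chr8:3681737-3694175) on chromosome 8 and Ms4a2 (chr19:11615523-11623719) on chromosome 19. Reads were taken at the transcripts' 3′ ends, where receptors of similar sequence could share reads. Of the stretches of 50 bases in the last 500 bases of the Fcgr2b transcripts, 33 of 2424 (1.36%) also occurred in Fcgr3, and no other member pair shared any.

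The promoters of 6 members are shown because they held a motif of either of 2 factor families known from myeloid and mast cell genes. No other member's window held a match. Each sequence is the 200 bases before a RefSeq transcription start (GRCm38.p6), 5′ to 3′ along the gene. Capitals mark matches, on either strand, to the core of the PU box bound by the myeloid factor PU.1 (GAGGAA or its complement TTCCTC) and to a GATA motif (AGATAA or TTATCT). The windows are chr3:96293970-96294169 on the minus strand for Fcgr1, chr1:171059404-171059603 on the minus strand for Fcgr3, chr1:171018726-171018925 on the plus strand for Fcgr4, chr3:87263525-87263724 on the minus strand for Fcrls, chr1:173227230-173227429 on the minus strand for Fcer1a and chr19:11623720-11623919 on the minus strand for Ms4a2.
Fcgr1: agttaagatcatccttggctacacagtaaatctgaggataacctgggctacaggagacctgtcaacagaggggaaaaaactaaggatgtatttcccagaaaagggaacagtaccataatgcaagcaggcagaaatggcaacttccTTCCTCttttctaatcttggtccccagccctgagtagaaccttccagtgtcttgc
Fcgr3: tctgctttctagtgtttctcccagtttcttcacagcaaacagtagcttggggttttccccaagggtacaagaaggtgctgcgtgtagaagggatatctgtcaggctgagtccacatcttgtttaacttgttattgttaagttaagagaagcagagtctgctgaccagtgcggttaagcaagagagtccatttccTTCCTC
Fcgr4: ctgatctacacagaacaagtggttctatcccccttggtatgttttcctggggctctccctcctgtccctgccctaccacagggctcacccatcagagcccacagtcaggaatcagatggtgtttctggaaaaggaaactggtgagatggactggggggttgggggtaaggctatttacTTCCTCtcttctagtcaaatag
Fcrls: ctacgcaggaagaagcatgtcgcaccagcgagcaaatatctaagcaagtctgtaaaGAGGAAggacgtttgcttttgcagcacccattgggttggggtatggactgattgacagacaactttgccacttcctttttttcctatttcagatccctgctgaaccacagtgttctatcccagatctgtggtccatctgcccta
Fcer1a: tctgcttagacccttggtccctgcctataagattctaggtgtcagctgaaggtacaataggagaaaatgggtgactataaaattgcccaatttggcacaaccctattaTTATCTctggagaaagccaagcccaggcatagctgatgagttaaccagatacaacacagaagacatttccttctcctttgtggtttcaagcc
Ms4a2: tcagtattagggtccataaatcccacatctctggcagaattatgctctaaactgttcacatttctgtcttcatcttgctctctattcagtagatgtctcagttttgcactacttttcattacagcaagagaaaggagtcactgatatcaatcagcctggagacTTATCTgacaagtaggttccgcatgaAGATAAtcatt

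A PU box match began 55 bases upstream of the start in Fcgr1, 6 in Fcgr3, 22 in Fcgr4 and 144 in Fcrls. Fcgr3 had another RefSeq start, not shown, from which the match lay 15 bases upstream. The GATA motif began 92 bases upstream in Fcer1a, and 37 and 11 bases upstream in Ms4a2. The first transcribed bases from the Fcer1a start were not found in GENCODE transcripts, so its distance depends on the RefSeq start. The windows of Fcgr2b, Fcer1g, Fcgrt and Fcer2a held neither string of letters. Over all 32851 RefSeq promoter windows of this length, 19.0% held the PU box letters and 7.80% the GATA letters, so matches of this kind are common and are given as a description of the sequence only.

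Levels of the members are given in the same unit, CPM, for each class and library, always in the order vehicle control replicate 2, niacin replicate 1 and niacin replicate 2. Fcer1g, the shared signaling chain, was the most widely spread member. It stood at 2573, 3213 and 3548 CPM in nonclassical monocyte-like cells, at 1916, 1799 and 2741 in natural killer (NK) cell-like cells and, in the monocyte- and macrophage-like class, at 2463, 1792 and 1757. In microglia-like cells it was 1453, 1767 and 1834, in neutrophil-like cells 1451, 1661 and 1480, and in basophil- or mast cell-like cells 956, 1538 and 1507. T cell-like cells held 103, 57.0 and 48.3 CPM, with the summed NK cell markers at 172, 120 and 65.1 CPM there. Whether their Fcer1g came from the cells or from free RNA was not tested. Every library of the 6 classes with high Fcer1g thus lay above every library of the T cell-like class, while each pair of neighbouring classes in this order overlapped.

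**Figure D1:**
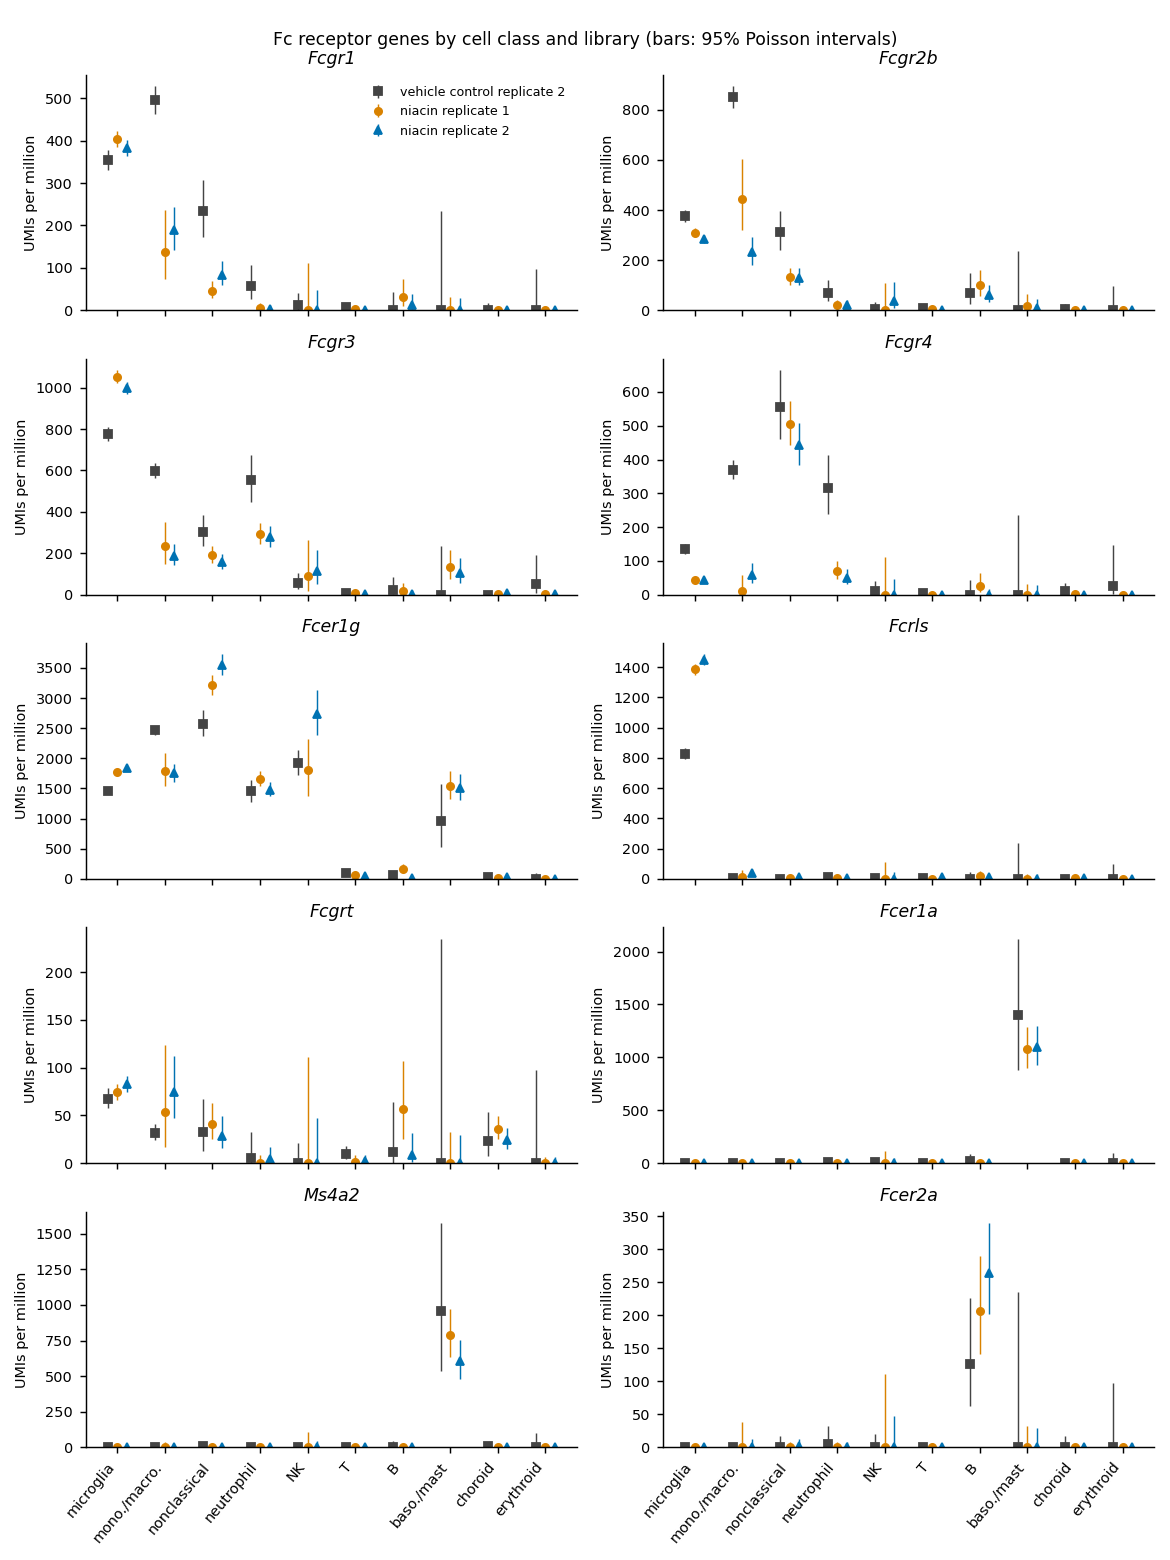
CPM (vertical axis, linear) of each Fc receptor gene in 10 cell classes (horizontal axis), 1 point per library with 95% Poisson intervals that cover counting error only. Fcrls stands apart in microglia-like cells at 828 to 1449, Fcgr4 is high in nonclassical monocyte-like cells at 443 to 556, Fcer1a and Ms4a2 in basophil- or mast cell-like cells, and Fcer2a in B cell-like cells.

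Among the activating IgG receptors, Fcgr3 was detected most broadly. Its level in microglia-like cells was 775, 1054 and 999 CPM (943 ± 148, SD, n = 3 libraries), against 597, 233 and 188 in the monocyte- and macrophage-like class, 304, 191 and 157 in nonclassical monocyte-like cells and 553, 291 and 279 in neutrophil-like cells. The lowest microglia-like library was above the highest of each of these classes. NK cell-like cells held 56.5, 89.9 and 115 CPM, and T cell-like cells 5.2, 6.3 and 3.4.

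Fcgr1, the high-affinity receptor, stood at 354, 403 and 382 CPM in microglia-like cells (380 ± 24.5, SD, n = 3). In monocyte- and macrophage-like cells the vehicle library was high at 495 and the niacin libraries were lower at 138 and 188, so the classes overlapped. The gene fell away in neutrophil-like cells, to 57.6, 4.7 and 2.3 CPM.

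Fcgr4 was the activating receptor whose high level in nonclassical monocyte-like cells, the patrolling subset of blood monocytes, recurred in all libraries. It stood at 556, 505 and 443 CPM there (501 ± 56.7, SD, n = 3). In the other myeloid classes the vehicle library was well above both niacin libraries: 370 against 10.6 and 58.5 in monocyte- and macrophage-like cells, 317 against 69.9 and 50.4 in neutrophil-like cells, and 136 against 42.4 in each niacin library for microglia-like cells. In T cell-like cells Fcgr4 had 4.1 CPM in the vehicle library and no UMI in the niacin libraries.

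The inhibitory receptor Fcgr2b was measured in myeloid and B cell-like cells. Monocyte- and macrophage-like cells held 851, 445 and 231 CPM, microglia-like cells 376, 309 and 285, and nonclassical monocyte-like cells 313, 131 and 131. The ranges of these 3 classes overlapped. B cell-like cells, in which Fcgr2b is the Fcγ receptor known to restrain antigen-receptor signaling, held 68.8, 100 and 60.8, and neutrophil-like cells 69.1, 21.0 and 22.9.

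Fcrls was close to exclusive to microglia-like cells, which held 98.4% of its 14672 UMIs in the kept cells. Its levels there were 828, 1385 and 1449 CPM, whereas monocyte- and macrophage-like cells held 6.4, 10.6 and 35.7. No library of any other class passed 18.7 CPM.

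Fcgrt, the FcRn chain, was low and broad. It stood at 67.2, 74.0 and 82.4 CPM in microglia-like cells, 31.7, 53.0 and 74.7 in the monocyte- and macrophage-like class and 22.7, 36.2 and 24.0 in choroid plexus-like cells, the epithelium that secretes cerebrospinal fluid. It had no UMI in NK cell-like or in basophil- or mast cell-like cells of any library.

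The IgE receptors were confined to small classes. Fcer1a was at 1402, 1081 and 1099 CPM in basophil- or mast cell-like cells, which held 85.8% of its 332 UMIs. Ms4a2 was at 956, 791 and 604 CPM in the same cells, with 85.0% of its 214 UMIs. This class had 5 cells in the vehicle library and 32 and 37 in the niacin libraries. Fcer2a was at 126, 206 and 265 CPM in B cell-like cells, which held 90.5% of its 116 UMIs, and it had no UMI in T cell-like cells.

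Class differences were tested with edgeR on the UMI sums of each class and library, with the library as a block, and p-values were adjusted over all genes tested. The comparison of microglia-like with monocyte- and macrophage-like cells asks how the Fc receptors of these myeloid classes differ. Whether cells of the second class were infiltrating or resident was not tested. Of 8 members tested, 2 were higher and 1 lower in microglia-like cells. Among the 8 was Fcer2a, with 5 UMIs in microglia-like and 1 in monocyte- and macrophage-like cells, too few to be called. Of all 8925 genes tested, 19.7% were higher and 20.7% lower, 40.4% in all, so the 3 members called (37.5% of those tested) are near the share over all genes. Fcrls was higher by 6.14 on the log2 scale (SE 0.43, edgeR adjusted p = 6.05e-13) and Fcgr3 by 1.35 (SE 0.31, adjusted p = 0.000744). With 98.4% of its UMIs in microglia-like cells, Fcrls passed the filter on low counts through that class, so its direction was largely settled in advance. Fcgr4 was lower, with a log2 difference of -1.19 (SE 0.40, edgeR adjusted p = 0.0159). Fcgr2b at -0.67 (SE 0.28, edgeR adjusted p = 0.0555), Fcgr1 at 0.53 (adjusted p = 0.263), Fcgrt at 0.42 (adjusted p = 0.381) and Fcer1g at -0.43 (adjusted p = 0.402) did not pass. The Fcgr4 call rested on the vehicle library, since its difference was -0.23 without it (edgeR adjusted p = 0.755), and it was also lost in DESeq2 (-0.73, adjusted p = 0.582) and without the library block (-1.39, edgeR adjusted p = 0.0991). Fcgr1 went the other way: without the vehicle library it was called at 1.14 (edgeR adjusted p = 0.000344). Without niacin replicate 1 or 2 the Fcgr3 difference was 1.10 or 1.03 and missed the threshold (edgeR adjusted p = 0.0665 and 0.0509). With every barcode found in several libraries removed, 5 members were called, and with all their copies kept, 4; Fcgr2b was called in both cases.

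In nonclassical monocyte-like against monocyte- and macrophage-like cells, 3 members were called beside 10.7% of all genes. Fcgr4 was higher by 1.95 (SE 0.41, edgeR adjusted p = 0.00132), while Fcgr2b (log2 difference -1.53, SE 0.30, edgeR adjusted p = 0.000667) and Fcgr1 (-1.46, SE 0.40, edgeR adjusted p = 0.0136) were lower. Without niacin replicate 1, whose monocyte- and macrophage-like sum came from 10 cells, none of the 3 passed (edgeR adjusted p = 0.0542, 0.0665 and 0.164), and without niacin replicate 2 only Fcgr2b did. Without the library block only Fcgr2b was called. With shared barcodes all removed or all kept, 4 members were called.

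Neutrophil-like cells differed from monocyte- and macrophage-like cells in 3 of 8 members tested (37.5%), which is near the 33.3% called over all genes, whose median log2 difference was -0.34. Among the 8 was Fcer2a, with 1 UMI in each class, too few to be called. Fcgr1 (log2 difference -3.60, SE 0.55, edgeR adjusted p = 4.27e-06), Fcgr2b (-3.17, SE 0.37, edgeR adjusted p = 4.19e-08) and Fcgrt (-3.35, SE 0.79, edgeR adjusted p = 0.00126) were lower. Fcgr3, at 0.74 (SE 0.32, edgeR adjusted p = 0.0718), was not called, but it was without the vehicle library, as was Fcgr4, giving 5 members in all. With shared barcodes removed Fcgrt was not called (-1.68, edgeR adjusted p = 0.154), and with all copies kept 3 members were called.

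NK cell-like cells were compared with T cell-like cells because NK cells kill antibody-coated targets through Fcgr3, while T cell-like cells serve as a lymphocyte class for comparison. Fcer1g was higher by 4.56 (SE 0.46, edgeR adjusted p = 1.37e-08) and Fcgr3 by 3.64 (SE 0.63, edgeR adjusted p = 0.00022), beside 4.37% of all genes called, with a median log2 difference of -0.21. Both were called with shared barcodes removed, with all copies kept and without each library in turn. The NK cell-like class held 61 cells in the vehicle library and 10 and 13 in the niacin libraries.

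In B cell-like against T cell-like cells, 3 members were called, all higher, beside 13.3% of all genes. Fcer2a was at least 182-fold higher (edgeR adjusted p = 8.17e-09), a bound taken at 3 UMIs over the summed T cell-like cells, and in DESeq2 it just missed (adjusted p = 0.0559). Without a UMI in T cell-like cells, it passed the filter on low counts through the B cell-like class, so its direction was settled in advance. Fcgr2b was higher by 3.80 (SE 0.51, edgeR adjusted p = 8.35e-07). Fcgrt was higher by 2.26 (SE 0.76, edgeR adjusted p = 0.0454), which rested on niacin replicate 1: at 56.2 CPM it was above 11.5 and 8.7 in the other libraries, and without it the difference was 0.55 (edgeR adjusted p = 0.895). Without the vehicle library 5 members were called, with Fcgr1 (3.85, edgeR adjusted p = 0.0045) and Fcgr4 (5.99, adjusted p = 0.0151) added. Both rested on few UMIs: over all 3 libraries, B cell-like cells held 8 of Fcgr1 and 4 of Fcgr4. With shared barcodes removed or all kept, 3 members were called.

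Basophil- or mast cell-like cells were compared with monocyte- and macrophage-like cells in the niacin libraries only, since the vehicle library held 5 of them. Of 10 members tested, 2 were higher and 5 lower, and of all 9429 genes tested 5.3% were higher and 8.17% lower, 13.5% in all. Among the 10 was Fcer2a, which had no UMI in either class and could not be called. Fcer1a was at least 146-fold higher (edgeR adjusted p = 3.08e-56) and Ms4a2 at least 92.8-fold higher (edgeR adjusted p = 4.7e-36), both bounds taken at 3 UMIs over the group. Neither gene had a UMI in the monocyte- and macrophage-like cells of these libraries. They passed the filter on low counts only through the basophil- or mast cell-like class, so the direction of their calls was settled in advance. DESeq2 called 4 of the 7, without Ms4a2 (adjusted p = 0.39), Fcgr4 (adjusted p = 0.25) and Fcrls (adjusted p = 0.0815). Fcgr2b was lower, with a log2 difference of -4.55 (SE 0.62, edgeR adjusted p = 1.7e-11). Fcgr1, Fcgrt, Fcgr4 and Fcrls had no UMI in the basophil- or mast cell-like cells of these libraries, which put them at least 14.2-fold, 5.60-fold, 3.80-fold and 2.40-fold lower. Their edgeR adjusted p were 3.13e-09, 0.000183, 0.00364 and 0.0422. Fcer1g (-0.15, edgeR adjusted p = 0.921) and Fcgr3 (-0.77, SE 0.42, adjusted p = 0.252) did not pass. With shared barcodes removed 7 members were called, and with all copies kept, 8.

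Choroid plexus-like cells were compared with T cell-like cells for FcRn, which epithelia use to carry IgG. Of the members, 2 were called beside 60.4% of all genes, a share so high that the calls say little about the members. Fcgrt was higher by 3.15 (SE 0.54, edgeR adjusted p = 7.81e-06), with 22.7, 36.2 and 24.0 CPM against 9.3, 1.6 and 2.2. Fcer1g was lower, with a log2 difference of -1.26 (SE 0.51, edgeR adjusted p = 0.0332), with 27.2, 5.7 and 30.1 against 103, 57.0 and 48.3 CPM. The Fcer1g call was lost with shared barcodes removed (-0.52, edgeR adjusted p = 0.333), without niacin replicate 1 (-0.84, adjusted p = 0.176) and without the vehicle library (-0.92, adjusted p = 0.12). With all copies of shared barcodes kept, 2 members were called.

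**Figure D2:**
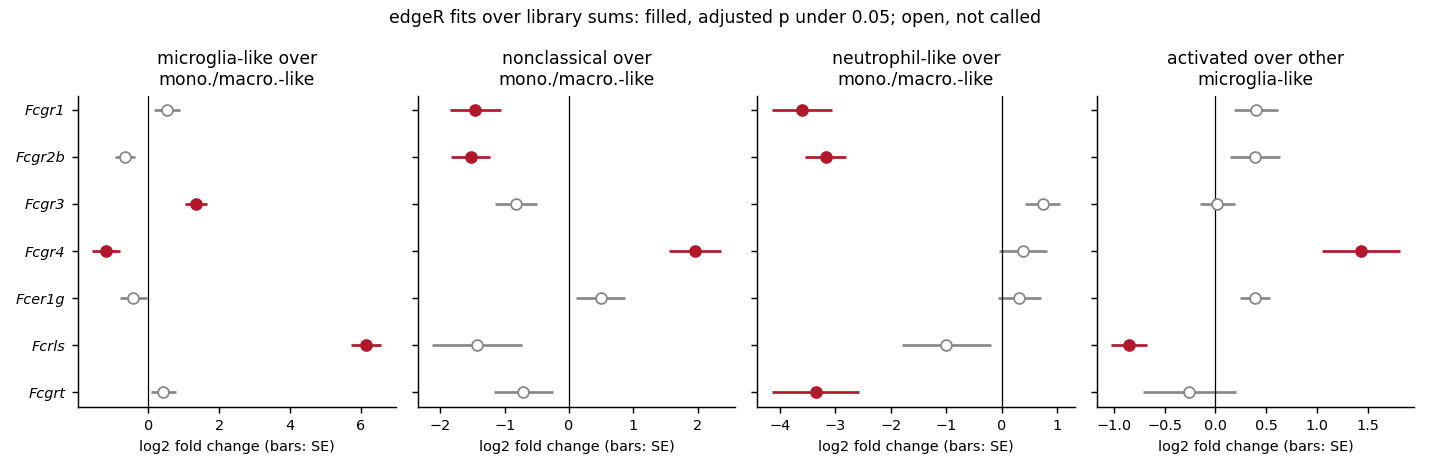
Log2 fold changes (horizontal axes, each panel with its own range) with SE bars from the edgeR fits over library sums, for 7 members (vertical axis) in 4 comparisons. Filled points passed an adjusted p of 0.05. Fcgr4 is to the right of 0 in nonclassical monocyte-like cells (1.95) and in activated microglia-like cells (1.44), and to the left in microglia-like cells (-1.19).

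The inhibitory Fcgr2b and the activating Fcgr3 bind IgG with similar low affinity, and the Fcgr2b share of the UMIs of both genes describes their balance within a cell class. The share was 58.8%, 65.6% and 55.0% in the monocyte- and macrophage-like class, 50.8%, 40.8% and 45.4% in nonclassical monocyte-like cells and 32.7%, 22.7% and 22.2% in microglia-like cells. In neutrophil-like cells it was 11.1%, 6.7% and 7.6%, and in B cell-like cells 75.0%, 84.2% and 93.3%. Every monocyte- and macrophage-like library was above every nonclassical library, and every nonclassical library above every microglia-like one. Within a library, the monocyte- and macrophage-like share was higher than the microglia-like share by 33.9 ± 8.50 percentage points (SD, n = 3, lowest 26.1, highest 43.0). An exact sign permutation over 3 libraries cannot give a two-sided p below 0.25, so no test is given. With shared barcodes all removed the difference was 46.1 points. NK cell-like cells had 11, 3 and 12 UMIs of the 2 genes, too few to place.

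**Figure D3:**
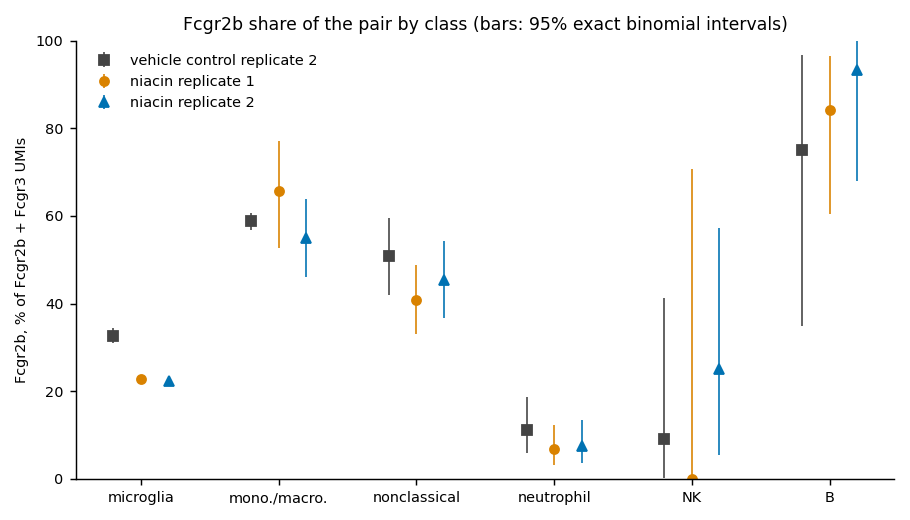
Fcgr2b UMIs as a percentage of Fcgr2b plus Fcgr3 UMIs (vertical axis) in 6 cell classes (horizontal axis), 1 point per library with 95% exact binomial intervals for counting error. The monocyte- and macrophage-like points sit between 55.0% and 65.6%, above the microglia-like points at 22.2% to 32.7%.

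Shares of cells with a UMI were compared after each cell was thinned to 2000 UMIs. Among microglia-like cells, 84.5%, 90.6% and 94.5% had a UMI of Fcer1g (74.3%, 85.2% and 79.6% before thinning), against 13.7%, 8.6% and 5.1% of T cell-like cells (21.1%, 14.3% and 7.2%). The T cell-like shares serve as a comparison only, since free RNA was not measured. Median depths were 4301, 4770 and 4429 UMIs for microglia-like and 5325, 5356 and 6363 for T cell-like cells. For Fcgr3 the microglia-like shares were 67.4%, 84.5% and 82.8% and the T cell-like shares 0.76%, 2.5% and 1.7%. A UMI of Fcgr4 was present in 60.0%, 64.3% and 57.8% of nonclassical monocyte-like cells and in no thinned T cell-like cell, and the microglia-like shares were 17.2%, 6.6% and 6.9%. The median depth of the nonclassical cells was 6934, 7180 and 7544 UMIs. At this depth a microglia-like cell held UMIs of 3.44, 3.76 and 3.82 members on average, a monocyte- and macrophage-like cell of 3.33, 1.43 and 2.18, and a T cell-like cell of 0.24, 0.12 and 0.11.

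Microglia-like cells were further split by activation, the state in which microglia lose homeostatic genes and express genes such as Cst7, Lpl and Itgax. After thinning to 2000 UMIs, a cell was called activated with 2 or more UMIs over 8 such genes (Cst7, Lpl, Itgax, Ch25h, Cxcl13, Axl, Csf1 and Spp1), none of which is an Fc receptor gene. There were 47 activated cells of 291 in the vehicle library (16.2%), 16 of 663 in niacin replicate 1 (2.41%) and 26 of 653 in niacin replicate 2 (3.98%). The split is a range of a score and not a cell type: 20, 10 and 14 of the activated cells lay at the limit of 2 UMIs, and 55, 44 and 53 cells lay 1 UMI below it. Shallower cells left out numbered 149, 194 and 348.

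Fcrls was lower in the activated cells of every library, at 574, 688 and 731 CPM against 885, 1390 and 1478 in the other microglia-like cells, and the groups did not overlap. Fcgr4 was higher in the activated cells of the vehicle library (245 against 82.0) and of niacin replicate 2 (96.2 against 32.7), but not of niacin replicate 1 (31.3 against 37.1). In the edgeR test over the paired sums 2 of 7 members tested were called, beside 5.36% of all 4831 genes. These were Fcrls, with a log2 difference of -0.85 (SE 0.18, edgeR adjusted p = 0.000978), and Fcgr4, with 1.44 (SE 0.38, adjusted p = 0.0132). The activated Fcgr4 values rested on 23, 1 and 5 UMIs. The Fcgr4 call depended on the vehicle library, without which it was 0.88 (edgeR adjusted p = 0.986), and it was also lost without niacin replicate 2 (1.34, adjusted p = 0.122), as was that of Fcrls (-0.83, adjusted p = 0.0519). With shared barcodes removed neither gene was called (Fcrls -0.52, edgeR adjusted p = 0.328, Fcgr4 1.19, adjusted p = 0.316), and with all copies kept both were. Without the library block neither was called (edgeR adjusted p = 0.115 and 0.113). Fcgr1 was at 457, 563 and 462 CPM in activated against 336, 410 and 391 in other cells, and was not called (0.40, SE 0.22, edgeR adjusted p = 0.38). The γ chain Fcer1g, at 1585, 2156 and 2481 against 1268, 1701 and 1816 CPM, was not called either (0.39, SE 0.15, edgeR adjusted p = 0.125).

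**Figure D4:**
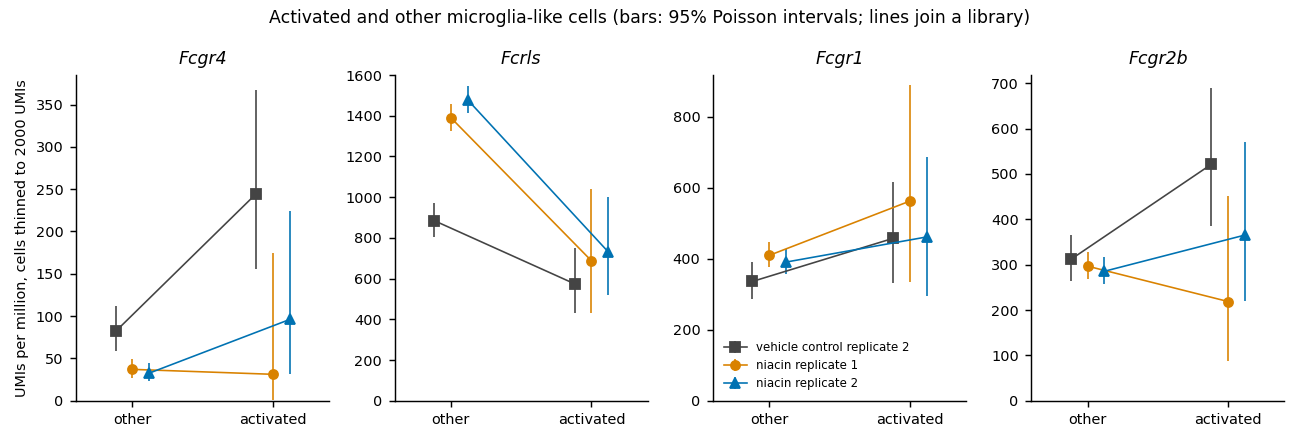
CPM (vertical axes, linear from 0) of 4 members in activated and other microglia-like cells after thinning to 2000 UMIs, with 95% Poisson intervals for counting error. Lines join the values of 1 library. Fcrls is lower in activated cells in all 3 libraries, whereas Fcgr4 is higher in the vehicle library and niacin replicate 2 and not in niacin replicate 1, where it rests on 1 UMI.

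The niacin libraries were set beside the vehicle library to describe the Fc receptors with and without treatment. These are descriptions of 3 pools: the intervals cover counting error only, and the vehicle library also had the lowest median depth and 756 of its 2270 barcodes below the quality limits, against 334 of 2145 and 329 of 2532. In microglia-like cells, the resident phagocytes, Fcgr4 was lower in both niacin libraries, with a log2 ratio of -1.68 in niacin replicate 1 (95% interval -1.95 to -1.41) and -1.68 in niacin replicate 2 (-1.94 to -1.42). Fcgr2b was lower by smaller steps, at -0.28 (-0.41 to -0.16) and -0.40 (-0.52 to -0.28). Fcrls was higher at 0.74 (0.67 to 0.82) and 0.81 (0.74 to 0.88), Fcgr3 at 0.44 (0.37 to 0.52) and 0.37 (0.29 to 0.44), and Fcer1g at 0.28 (0.23 to 0.34) and 0.34 (0.28 to 0.39). Fcgr1 was at 0.19 (0.07 to 0.31) and 0.11 (-0.01 to 0.23), and Fcgrt at 0.14 and 0.30, so neither was clearly apart from 0 in both libraries. Of the 7 members at 20 CPM or more, 5 were thus higher and 2 lower in both niacin libraries, beside 38.2% and 50.8% of the 6612 genes at that level. A value at least 2-fold lower in both, as for Fcgr4, was found for 2.25% of these genes. With classes taken from graph clusters instead of marker UMIs, no member was lower in both niacin libraries.

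The level of Fcgr4 in vehicle microglia-like cells depended on which cells were counted. Of the 440 cells, 278 were in graph clusters named from microglia markers and held 37.1 CPM of Fcgr4, close to the 39.1 and 33.6 of the niacin cells in those clusters. A further 151 lay in clusters with another name or none and held 229 CPM of Fcgr4, with Fcrls at 547 against 1162 CPM in the 278 cells. The other 11 lay in the monocyte- and macrophage-named cluster, with Fcgr4 at 225 CPM and the monocyte and macrophage markers at 2980 CPM. In those 151 cells the summed microglia markers were at 13164 CPM against 20930 and the summed activation genes at 1141 against 90.3 CPM, while the monocyte and macrophage markers were at 168 against 74.3. The 139 and 145 niacin cells in clusters with another name or none held Fcgr4 at 79.5 and 117 CPM and Fcrls at 1303 and 1143. Their median depths were 1606 and 1671 UMIs, against 7077 in the 151 vehicle cells, so depth also differed. Over all microglia-like cells, the monocyte and macrophage markers stood at 230 CPM in the vehicle library and at 28.0 and 36.8 in the niacin libraries, against 5524 to 7572 in the monocyte- and macrophage-like class. Their part in the Fcgr4 difference was not tested. With classes taken from graph clusters Fcgr4 was at 37.5, 38.8 and 33.4 CPM in microglia, and with shared barcodes removed at 91.3, 40.9 and 35.2. The values of other members also moved with the classes from graph clusters: Fcrls was then at 1151, 1386 and 1487 CPM, a smaller gap than with marker classes, and Fcgr2b at 283, 305 and 283.

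The receptors Fcgr1, Fcgr2b and Fcgr3 had lower values in both niacin libraries than in the vehicle library in the nonclassical and the monocyte- and macrophage-like classes. Nonclassical monocyte-like cells, with 29, 66 and 50 cells, held Fcgr1 at log2 ratios of -2.37 and -1.47, Fcgr2b at -1.25 and -1.26, and Fcgr3 at -0.67 and -0.95. Their Fcgr4 ratios of -0.14 (-0.46 to 0.19) and -0.33 (-0.66 to 0.01) were within counting error of 0, and Fcer1g was at 0.32 and 0.46. Lower values in both libraries were found for 44.9% of 5810 genes in this class. The summed monocyte and macrophage markers in these cells were at 2195 CPM in the vehicle library against 1071 and 699 in the niacin libraries, and their own nonclassical markers at 3078 against 4211 and 4263, whose part in the receptor values was not tested. In neutrophil-like cells Fcgr4 was at -2.18 and -2.65 and Fcgr3 at -0.92 and -0.98, but 73.0% of 4248 genes were lower in both libraries there, and the median log2 ratio of all genes was -0.77. Neutrophil-like Fcer1g was at 0.19 (-0.01 to 0.41) and 0.03 (-0.18 to 0.24).

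Monocyte- and macrophage-like cells held Fcgr1 at -1.84 and -1.39, Fcgr2b at -0.93 and -1.88, Fcgr3 at -1.36 and -1.66 and Fcer1g at -0.46 and -0.49, with 38.7% of 5867 genes lower in both libraries. Fcgr4 was at -5.12 (interval -10.4 to -2.64, from 1 UMI) and -2.66 (-3.43 to -1.99). The make-up of this class differed between the libraries: Arg1, a marker of tumor-associated macrophages, was at 866 CPM in the vehicle library and at 21.2 and 19.5 in the niacin libraries. Within the vehicle library, thinned cells with an Arg1 UMI (40 cells) held more Fcgr2b than those without (127 cells), at 1163 CPM (95% Poisson interval 938 to 1424) against 776 (671 to 892), and more Fcgr4, at 588 (432 to 781) against 240 (184 to 308). Fcgr3 (738, 561 to 951, against 437, 360 to 526) and Fcer1g (2675, 2329 to 3058, against 2051, 1879 to 2235) were also higher. Fcgr1 (375 against 496) and Fcgrt (0 against 39.4) were lower. The niacin cells without an Arg1 UMI, 7 and 20, held Fcgr2b at 500 and 375 CPM and Fcgr4 at 0 and 100. The vehicle split is 1 library without a test, and the part of cell make-up in the niacin values was not tested.

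**Figure D5:**
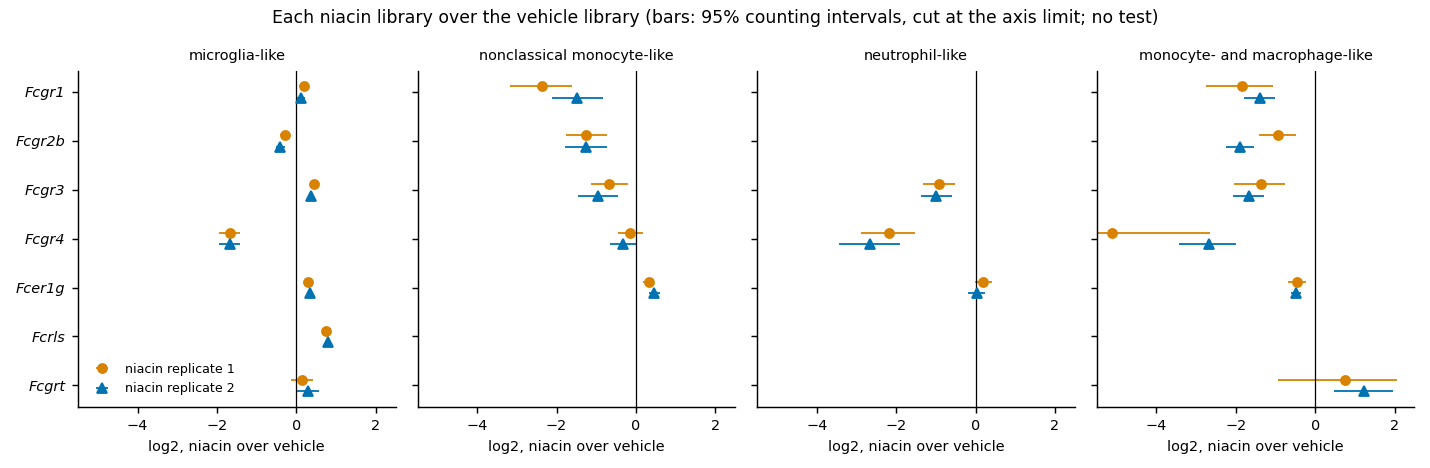
Log2 ratio of each niacin library over the vehicle library (horizontal axis) for the members in 4 myeloid classes, with 95% counting intervals cut at the axis limit. No test was made. In microglia-like cells Fcgr4 lies at -1.68 in both niacin libraries and Fcrls at 0.74 and 0.81, and in nonclassical monocyte-like cells Fcgr4 lies at -0.14 and -0.33.

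The partners of the receptors were counted over 4 lists. Between microglia-like and monocyte- and macrophage-like cells, 19.7% of all genes tested were higher and 20.7% lower. The counts of the activating, inhibitory and Fc receptor-like lists were near or under these shares, so they say little about those lists. The first list joined receptors that signal through the γ chain (Clec4e, Clec4d, Clec4n, Pira2, Oscar), adaptors (Tyrobp, Hcst, Cd247) and B2m. Of its 9 genes in the feature tables, 8 were tested between microglia-like and monocyte- and macrophage-like cells, and none was higher and 5 lower (4 of the receptors and Hcst), with a median log2 difference of -2.78 beside 0.07 over all genes. The C-type lectin Clec4e had the most negative difference (-5.75), followed by Pira2 (-4.98), a paired immunoglobulin-like receptor. Of 12 activating signaling genes, none was higher and 2 lower, the Src-family kinases Fgr (-4.44) and Fyn (-2.18), with a median of -0.09. Of 8 inhibitory signaling genes, 1 was higher, Inpp5d (1.66), which encodes SHIP-1, and 2 were lower, Dok2 (-5.86), an adaptor, and Ptpn6 (-0.71), which encodes the phosphatase SHP-1, with a median of -0.41. Of 4 other immunoglobulin receptor and Fc receptor-like genes tested, Fcrl1 was higher (4.31) and Fcrla lower (-3.20), with a median of -0.73. Fcrla was lower in the vehicle library (0.82 against 8.21 CPM), and in the niacin libraries it was at 0.24 and 0.22 CPM in microglia-like and at 0 in monocyte- and macrophage-like cells, so the direction of the call is that of the vehicle library alone.

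In other comparisons the lists are given beside the share of all genes called in the same direction. Between NK cell-like and T cell-like cells, where 1.64% of all genes were higher, 1 of 8 genes of the first list was higher, Tyrobp, the DAP12 adaptor (5.40), and 4 of the 12 activating genes were, among them Syk (4.91). The medians were -0.33 and 1.35, beside -0.21 over all genes. Nonclassical monocyte-like cells had 5 of 12 activating genes (median 0.64) and 4 of 8 inhibitory genes (median 0.90) higher than monocyte- and macrophage-like cells and 1 inhibitory gene lower, beside 4.96% of all genes higher and 5.74% lower and a median of -0.15. Neutrophil-like cells had 5 of 8 genes of the first list higher than monocyte- and macrophage-like cells and none lower (median 1.23), beside 13.4% of all genes higher and a median of -0.34. In activated microglia-like cells 3 genes of the first list were tested, and 2 of these were higher beside 3.48% of all genes: B2m, the partner of FcRn, by 0.96 and Tyrobp by 0.62. None of the 10 activating genes (median -0.10) or 5 inhibitory genes (median -0.64) tested there was called.

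Of the heavy chain genes of the ligands, Ighe (IgE) and Ighg1 had no UMI in any class or library. IgG heavy chain UMIs were nearly all in the niacin libraries, but from few cells. Plasma cell-like cells numbered 7, 3 and 2. They held Ighg2b at 0, 84211 and 811 CPM and Ighg2c at 21.8, 209 and 50130 CPM, the vehicle value coming from 3 UMIs. The high Ighg2b value came from 6836 UMIs in 3 cells and the high Ighg2c value from 1730 UMIs in 2 cells. With so few cells, single cells can set which gene shows, and the libraries cannot be compared in this. Ighm, the heavy chain of IgM, was at 4687, 3542 and 3142 CPM and Igkc, a light chain, at 4595, 9877 and 8089 CPM in B cell-like cells. Microglia-like cells held 293, 218 and 237 CPM of Ighm. T cell-like cells held 230, 147 and 55.0 CPM of it and nonclassical monocyte-like cells 173, 92.3 and 144. Whether these UMIs came from free RNA was not tested. Profiles were compared over the 24 sums of 8 classes in 3 libraries, which share their depth and composition by library. For each member with a mean of 20 CPM or more over these sums, the gene of the most similar profile was found. Fcer1a and Ms4a2 were not placed, since the basophil- or mast cell-like class is not among the 8. Fcer1g was nearest to Tyrobp (Pearson r = 0.97), Fcgr1 to Atf3 (0.97) and Aif1 (0.96), Fcgr3 to Itgam (0.95), Fcgr4 to Lst1 (0.93), Fcgr2b to Unc93b1 (0.92), Fcrls to Slc2a5 (0.98), Fcgrt to Cd302 (0.90) and Fcer2a to Ms4a1 (1.00), itself a marker of the B cell-like class.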

How the data were processed

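The authors deposited UMI count matrices of each library (genes by cell barcodes), made with Cell Ranger 3.1 and STAR against mm10 according to the submitters' processing notes, from Chromium 3′ v3.1 libraries. The counts were not normalized, and the matrices held 2145 to 2532 barcodes and 8301228 to 10359526 UMIs a library. Members and gene lists were chosen with earlier results of these data known.

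Barcodes with at least 200 genes and at most 20% mitochondrial UMIs were kept, as in the methods. Of the 924 barcodes in more than 1 library, 76 had no library with 5 times the UMIs of any other and were dropped. A cell entered a class with at least 2 markers and 3 marker UMIs of its list and a score 1.5 times the next. A total of 106 mixed cells and 264 without a class were left out, as were 12 plasma cell-like cells and 1 oligodendrocyte-like cell, and 204 cells had a highest score under 2 times the next. The 16, 3 and 3 dendritic-like cells were merged with the monocyte- and macrophage-like class after the data were seen, so that niacin replicate 1 reached the minimum of 10 cells. Scrublet called 19 doublets (0.445%), which were not removed.

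UMIs were summed per class and library (8 classes in 3 libraries) and tested with edgeR 4.0.16 in R 4.3.3 (quasi-likelihood, TMM, filterByExpr, the library as a block, Benjamini-Hochberg over all genes tested, called at 0.05), with all classes in 1 fit. The basophil- or mast cell-like comparison was fitted on the 2 niacin libraries, where it had 10 or more cells. The same libraries hold the classes compared, so the block pairs sums of the same pool. Libraries are pools of animals. The p-values measure the spread of the class sums left after the library block, estimated over all classes of a fit in these 3 libraries. They do not measure the differences between pools that the block takes up. In the basophil- or mast cell-like comparison they rest on the 2 niacin libraries. Its very small p-values should not be read as replication over many pools. DESeq2 1.42.0 was an alternative, and the scripts were tested on simulated data. Shares used cells thinned to 2000 UMIs, without shallower cells. Intervals are 95% exact Poisson or Clopper-Pearson and cover counting error only. All members were named in every class, and from each of 4 gene lists the 2 most positive and 2 most negative genes called between microglia-like and monocyte- and macrophage-like cells. Genes named from the lists in other comparisons were chosen after their values were seen. Likeness was Pearson's r of log2(CPM + 10) over genes with a mean of 20 CPM or more over the sums. Promoters were read from RefSeq, and gene positions from GENCODE for GRCm38, the build of mm10. Protein sequences were not used here. Python 3.11.15, scanpy 1.11.5, scipy 1.17.1 and numpy 2.4.6 were used.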

Additional observations from a re-analysis of the deposited data

Results flagged for a closer look

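In these results every niacin library lay on one side of the vehicle library in one class and on the opposite side in another. The differences between the classes were not tested, because there was 1 vehicle library. The log2 ratio of niacin over vehicle for Fcgr3, averaged over the 2 niacin libraries, was higher in microglia-like cells than in monocyte- and macrophage-like cells by 1.92, than in nonclassical monocyte-like cells by 1.21 and than in neutrophil-like cells by 1.36. The median log2 ratio over all genes was -0.77 in neutrophil-like and -0.07 in microglia-like cells, and Fcgr3 itself was at -0.92 and -0.98 in neutrophil-like cells. For Fcer1g it was higher in microglia-like cells than in monocyte- and macrophage-like cells by 0.78, and the monocyte- and macrophage-like ratio minus the nonclassical one was -0.86. The classes share their libraries, and the monocyte- and macrophage-like values of niacin replicates 1 and 2 come from 10 and 27 cells.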

How the results depend on the processing

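Of the single-gene values recomputed under other settings, 452 kept their direction and their side of the threshold, 51 lost the call, 26 gained one and 12 changed sign, and of the counts and shares 112 stayed within and 31 moved past 1.5 times or 1 SD. Except where a setting itself drops cells or libraries, the cause was not tested. The limits are the 10 and 27 monocyte- and macrophage-like cells of the niacin libraries, the 10 and 13 NK cell-like cells, the single vehicle library and the low UMI counts of Fcgrt, and of Fcgr4 in the niacin libraries' monocyte- and macrophage-like cells (1 and 18 UMIs). Between the microglia-like and the monocyte- and macrophage-like class, 5 members were called in place of 3 with shared barcodes removed and with dendritic-like cells left out, which was added after seeing the data, and 2 by DESeq2, without the replicate block and with mixed cells assigned to the higher score. In nonclassical monocyte-like cells 1 was called by DESeq2, 1 without the replicate block, 2 with mixed cells assigned and 5 with graph clusters. DESeq2 called 4 members in basophil- or mast cell-like cells. In choroid plexus-like cells 1 was called in place of 2 by DESeq2, with RLE scaling, with shared barcodes removed, with mixed cells assigned to the higher score, with graph clusters and without the replicate block. In activated microglia-like cells 1 was called in place of 2 with the 5% highest doublet scores left out, by DESeq2, without the filter on low counts and with 2 times the marker evidence, and 0 were called with shared barcodes removed, without the replicate block or with thinning to 1000 UMIs, all in edgeR at adjusted p. Leaving out each library gave counts of 2 to 3 (microglia-like), 0 to 3 (nonclassical), 3 to 5 (neutrophil-like), 2 (NK cell-like), 2 to 5 (B cell-like), 1 to 2 (choroid plexus-like) and 0 to 2 (activated). The Fcgr2b share difference was 46.1 points with shared barcodes removed and 29.4 to 37.9 without each library. With graph clusters 0 members were lower in both niacin libraries in microglia. The mean share of microglia-like cells with Fcgr3 was 78.2%, and 52.7% and 96.2% with thinning to 1000 and 4000 UMIs. The sign changed for 3 values that were not called: Fcgr4 in neutrophil-like cells (0.38) was -0.15 with all shared barcodes kept and -0.33 with 2 times the marker evidence. Fcgr4 in B cell-like cells (2.66) was -3.36 without the highest doublet scores, -3.32 with shared barcodes removed, -1.20 with graph clusters and -3.64 to 5.99 without each library. Fcer1g in B cell-like cells (0.06) was -1.58 without the highest doublet scores, -1.64 with shared barcodes removed, -0.59 with mixed cells assigned, -0.45 with graph clusters, -0.19 with 2 times the marker evidence and -1.55 to 0.64 without each library. RLE scaling turned the split of higher and lower calls over all genes from 146 and 244 to 176 and 146 in NK cell-like cells and from 500 and 770 to 709 and 648 in basophil- or mast cell-like cells, and moved the median log2 difference of neutrophil-like cells from -0.34 to -0.16, of NK cell-like cells from -0.21 to -0.03 and of choroid plexus-like cells from -0.03 to 0.11.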

Other observations

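The level of members in microglia-like cells moved with the depth of the cell. In cells with at least 2000 UMIs Fcer1g stood at 1530, 1835 and 1946 CPM (vehicle, niacin replicate 1, niacin replicate 2), against 499, 711 and 710 in shallower cells, and Fcgr3 at 807, 1088 and 1042 against 380, 531 and 566. Fcrls did not follow this in niacin replicate 1, where it was 1373 in deeper and 1578 in shallower cells. Plasma cell-like cells, 12 in all, held Ighm at 194039, 50211 and 65314 CPM, and 1 IgG heavy chain gene, Ighg2c, was at 4048 CPM in the B cell-like cells of niacin replicate 1 and at 0 in the other libraries.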
